A study of Mus musculus with 18 samples.

Results

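The liver stores glucose as glycogen, a branched polymer, and 8 genes of this store and of the control of glucose phosphorylation were followed here in the livers of mice on a high-fat diet (HFD) with the compound AC261066, on the HFD alone, or on chow. They were listed by name and role, with earlier results of these data known: *Gckr*, *Ugp2*, *Gys2*, *Gbe1*, *Pygl*, *Ppp1r3b*, *Ppp1r3c* and *Ppp1r3g*. All 8 were among the 20512 genes of the table, and all 8 were among the 13268 genes tested, which averaged 2 or more on the log2 scale. The HFD+AC261066 group was fed the HFD (60% of kcal from fat) for 4 months and for the last 2 months was given AC261066, which activates RARβ2, a receptor for retinoic acid, in the drinking water (3 mg in 100 ml). The HFD group had the same diet and time without the compound, and the chow group had a diet with 13% of kcal from fat. All mice were wild-type male C57BL/6, aged 6 to 7 weeks at the start, all had 0.2% DMSO in the water during the last 2 months, and all were fasted overnight before the livers were taken. Each group had 6 mice, with 1 RNA-seq library a liver, and the study had no group that received AC261066 on chow.

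Glucose that enters a hepatocyte is trapped as glucose 6-phosphate, turned into glucose 1-phosphate and activated to UDP-glucose, which glycogen synthase adds to a growing chain and the branching enzyme ties into branches. Glycogen phosphorylase takes the chains apart again between meals. Protein phosphatase 1 (PP1) sets the balance: carried to the glycogen particle by targeting subunits of the PPP1R3 family, it switches the synthase on and the phosphorylase off. In the fasting liver the glucokinase regulatory protein, encoded by *Gckr*, holds the phosphorylating enzyme inactive in the nucleus. All values below are of mRNA, and none of them measures glycogen, enzyme activity or phosphorylation.

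The values are the authors' log2 expression values, with a batch effect removed before deposit. For every gene tested here, the mean of all libraries numbered 1 to 3 equalled that of all libraries numbered 4 to 6 (largest difference 4.44e-14). These 2 sets of replicates therefore entered the main fits as a term, and values within each set are given where they differ. Fits of 1 set alone, and the alternatives with no set term or with a replicate block, did not hold this term. No length correction is known for these values, so levels are compared between groups for 1 gene and not between genes. The median SD within groups was 0.019 for the 2342 genes with a mean log2 value below 0, 0.062 for means from 0 to 2, 0.12 for means from 2 to 4 and 0.17 for means from 4 to 6, so errors and differences of genes with the lowest values may be understated. Calls were made with limma, where the p-value adjusted by Benjamini-Hochberg over all genes tested was under 0.1. The depth of single libraries is unknown from these values. Medians over the tested genes lay between 8.35 and 8.38 in the 18 libraries.

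On the mouse assembly NCBIM37 (mm9), *Gckr* lies on chromosome 5 from 31599954 to 31629673, *Ugp2* on chromosome 11 from 21221141 to 21271204, *Gys2* on chromosome 6 from 142371133 to 142421629 and *Gbe1* on chromosome 16 from 70314194 to 70569961. *Pygl* lies on chromosome 12 from 71291798 to 71332475, *Ppp1r3b* on chromosome 8 from 36438795 to 36451178, *Ppp1r3c* on chromosome 19 from 36806227 to 36811143 and *Ppp1r3g* on chromosome 13 from 36050708 to 36062257. These are whole genes of the GENCODE annotation, exons and introns included, so the members share no locus. A gene on the opposite strand overlaps *Gbe1*, *Pygl* and *Ugp2* each, none of them listed in the table. Whether the counting used strand is not given in the sources used here, so reads of these partners cannot be told apart from those of the members.

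*Gckr*, *Gbe1* and *Pygl* were the members called both between HFD and chow and between HFD+AC261066 and HFD, and their promoter windows are shown for that reason, around the annotated start, from 250 bases before it to 50 bases after it, from RefSeq on GRCm38.p6, 5′ to 3′. They cover chr5:31297313-31297612 (plus strand), chr16:70313699-70313998 (plus strand) and chr12:70227634-70227933 (minus strand). Capitals mark the reverse complement of AGGTCA, the half-site at which retinoid and related nuclear receptors bind.
Gckr: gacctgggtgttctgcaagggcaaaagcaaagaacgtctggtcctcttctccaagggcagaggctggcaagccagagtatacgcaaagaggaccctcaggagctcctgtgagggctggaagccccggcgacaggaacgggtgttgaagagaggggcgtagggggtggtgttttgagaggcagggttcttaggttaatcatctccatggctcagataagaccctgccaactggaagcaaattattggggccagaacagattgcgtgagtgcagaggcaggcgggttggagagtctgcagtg
Gbe1: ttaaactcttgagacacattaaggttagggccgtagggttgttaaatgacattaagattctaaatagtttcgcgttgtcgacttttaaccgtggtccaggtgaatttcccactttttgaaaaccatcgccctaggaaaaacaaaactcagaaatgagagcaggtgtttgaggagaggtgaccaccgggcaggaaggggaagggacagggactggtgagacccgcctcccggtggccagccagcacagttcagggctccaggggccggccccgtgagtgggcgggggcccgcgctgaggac
Pygl: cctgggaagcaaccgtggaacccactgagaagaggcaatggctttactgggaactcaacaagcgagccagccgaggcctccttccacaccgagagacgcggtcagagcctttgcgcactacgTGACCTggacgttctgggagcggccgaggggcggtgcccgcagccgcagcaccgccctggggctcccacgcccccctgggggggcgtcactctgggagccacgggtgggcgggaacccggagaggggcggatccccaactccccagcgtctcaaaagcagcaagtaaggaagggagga
The match in *Pygl* is at position -128 from the start. AGGTCA or its reverse complement occurs in 16.3% of 32851 promoter windows of this length, so a single match is a description and not a binding site. Windows were found for 6 of the 8 members, with 7 windows in all. The other motifs searched, on both strands, were CACGTG (an E-box, in 7.15% of all windows), TGTTTAC (a forkhead motif, in 3.65%) and CAAAGTCCA (a site of the HNF4 kind, in 0.475%). Of these, CACGTG was found once, in *Ppp1r3c*, at position -104, and no searched motif was in the windows of *Gckr*, *Ugp2*, *Gbe1* or *Ppp1r3g*.

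Between HFD and chow livers, *Gckr*, *Gbe1*, *Pygl* and *Ppp1r3b* were higher and *Gys2* and *Ppp1r3g* were lower on the HFD. By limma 6 of the 8 members were called, against 29.2% of all genes tested. The 4 higher members stand beside 14.2% of genes called higher, and the 2 lower members beside 15% called lower. In 4 of 8 members the ranges of the groups did not overlap, as in 9.72% of all genes. The median log2 difference of the 8 members was 0.30, and that of all genes 0.0060. Between HFD+AC261066 and HFD livers, *Gckr*, *Ugp2*, *Gbe1* and *Pygl* were lower with the compound and no member was higher, 4 called of 8, against 2.8% of all genes (1.27% higher and 1.54% lower). The same 4 genes had ranges that did not overlap, as did 1.74% of all genes. The median difference was -0.33 for the members and 5.19e-05 for all genes. Between HFD+AC261066 and chow livers 3 of 8 members were called, *Gbe1* higher and *Ugp2* and *Ppp1r3g* lower, against 16.7% of all genes (8.22% higher and 8.45% lower). Ranges did not overlap in 1 of 8 members, against 3.69% of all genes. The members were listed with earlier results of these data known, so these shares are a description and not a test of the pathway. Of 31 other tested genes of the pathway, 10 were called between HFD and chow and 1 between HFD+AC261066 and HFD. Each pair of comparisons shares a group, the HFD livers with opposite signs, and the values of each comparison are given side by side below. The p-values set each group difference against the spread between livers within groups, which limma estimates partly from other genes. In replicates 1 to 3 alone, with 3 livers a group, *Gckr* and *Gbe1* were the 2 members called between HFD and chow and none was called between HFD+AC261066 and HFD. Without any 1 of HFD replicates 2 and 3 and HFD+AC261066 replicates 4 and 5, 2 members were called between HFD+AC261066 and HFD, *Gbe1* and *Pygl*.

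**Figure D1:**
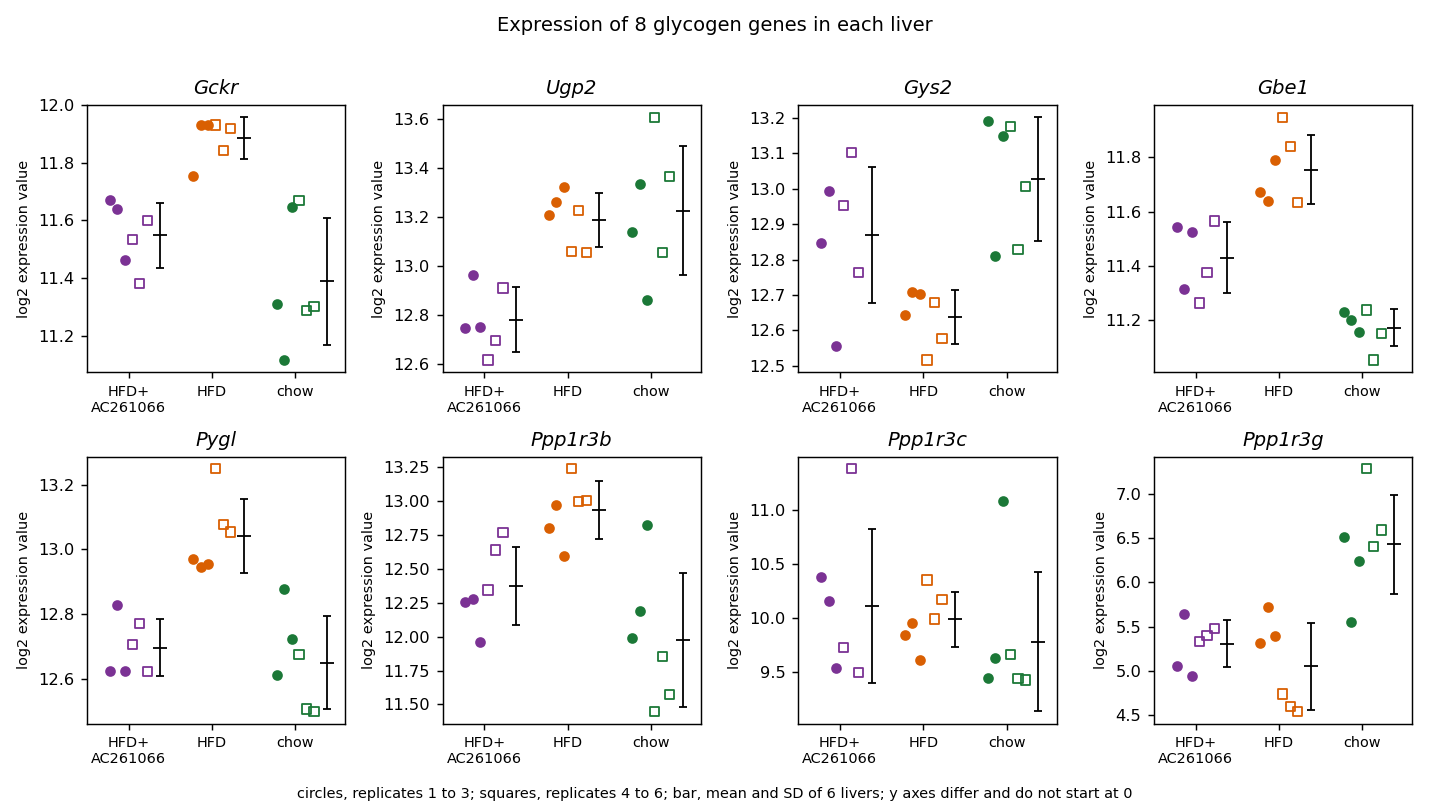
Log2 expression value (y axis, a scale of its own in each panel) of each of the 8 genes in each liver of the HFD+AC261066, HFD and chow groups. Circles are replicates 1 to 3, squares replicates 4 to 6, and the black mark is the mean with the SD of 6 livers; all HFD livers lie above all others for *Gbe1*, *Gckr* and *Pygl*.

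*Gckr*, whose protein restrains glucose phosphorylation in fasting liver, ran from 11.38 to 11.67 (median 11.57) on the log2 scale in HFD+AC261066 livers, from 11.75 to 11.93 (median 11.92) in HFD livers and from 11.12 to 11.67 (median 11.31) in chow livers. The HFD livers stood above every liver of the other groups, and 5 of the 6 HFD+AC261066 livers lay within the range of chow. The HFD livers were also close together, with an SD of 0.073 (n = 6), against 0.22 in chow livers. *Gckr* was higher in HFD than in chow by 0.50 (SE 0.085, adjusted p = 0.000755 by limma), a 1.41-fold level, and the difference was 0.52 in replicates 1 to 3 and 0.48 in replicates 4 to 6. HFD+AC261066 differed from HFD by -0.34 (SE 0.085, adjusted p = 0.0560), a 0.792-fold level, and from chow by 0.16 (95% interval -0.018 to 0.34, adjusted p = 0.235). The call of HFD+AC261066 against HFD was lost without any 1 of HFD replicates 2, 3, 4 and 6 or HFD+AC261066 replicates 4 and 5, with adjusted p between 0.10 and 0.133, while the difference stayed between -0.37 and -0.30. Without chow replicate 3, *Gckr* was called higher in HFD+AC261066 than in chow livers, by 0.22 (adjusted p = 0.0935).

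*Ugp2* encodes the enzyme that makes UDP-glucose, the sugar donor of glycogen synthesis and also the precursor of UDP-glucuronate. Its log2 values ran from 12.62 to 12.97 (median 12.75) in HFD+AC261066 livers, from 13.05 to 13.32 (median 13.22) in HFD livers and from 12.86 to 13.61 (median 13.24) in chow livers. Each HFD+AC261066 liver was below each HFD liver, and 5 of the 6 chow livers were above every HFD+AC261066 liver. *Ugp2* was the member that was lower with AC261066 against both other groups, by -0.41 against HFD (SE 0.10, adjusted p = 0.0545, 0.754-fold) and by -0.45 against chow (adjusted p = 0.0136, 0.734-fold). HFD and chow livers differed by -0.038, with a 95% interval of -0.25 to 0.18 (adjusted p = 0.825), and the sign was not stable, being 0.15 in replicates 1 to 3 and -0.23 in replicates 4 to 6. Without any 1 of HFD replicates 2, 3 and 5 or HFD+AC261066 replicates 1, 4 and 5 the call against HFD was lost, with adjusted p between 0.103 and 0.137. The difference from HFD was of like size in both sets, -0.44 in replicates 1 to 3 and -0.37 in replicates 4 to 6. It was called in neither set alone (adjusted p = 0.235 and adjusted p = 0.152 by limma).

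*Gys2*, the liver form of glycogen synthase, ran from 12.56 to 13.10 (median 12.90) in HFD+AC261066 livers, from 12.52 to 12.71 (median 12.66) in HFD livers and from 12.81 to 13.19 (median 13.08) in chow livers. Every HFD liver was below every chow liver, while HFD+AC261066 replicate 3 was among the HFD livers and the other 5 treated livers were above all HFD livers. *Gys2* was lower in HFD than in chow by -0.39 (SE 0.090, adjusted p = 0.00604), a 0.763-fold level. HFD+AC261066 differed from HFD by 0.23 (95% interval 0.043 to 0.42, unadjusted p = 0.0188 by limma), which did not pass (adjusted p = 0.218), and from chow by -0.16 (95% interval -0.35 to 0.031, adjusted p = 0.271). Without HFD+AC261066 replicate 3 the difference from HFD was 0.30 and was called (adjusted p = 0.0893). The difference of HFD from chow was -0.37 in replicates 1 to 3 and -0.41 in replicates 4 to 6.

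*Gbe1*, the glycogen branching enzyme, was the 1 member whose groups were all apart. Its log2 values ran from 11.26 to 11.57 (median 11.45) in HFD+AC261066 livers, from 11.63 to 11.95 (median 11.73) in HFD livers and from 11.06 to 11.24 (median 11.18) in chow livers. No range overlapped another, with the treated livers between the HFD and chow livers. *Gbe1* was higher in HFD than in chow by 0.58 (SE 0.068, adjusted p = 2.85e-05), a 1.5-fold level. In HFD+AC261066 livers it was lower than in HFD by -0.32 (adjusted p = 0.0258, 0.800-fold) and higher than in chow by 0.26 (adjusted p = 0.0255, 1.20-fold). All 3 calls held without each single library, and no other member was called in all 3. Under the 11 other alternatives the call of HFD against chow held in all. The call of HFD+AC261066 against chow was lost in 2 of them (highest adjusted p = 0.174 by limma). That against HFD was lost in 1 (adjusted p = 0.308 by limma), with replicates 1 to 3 alone.

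*Pygl*, the liver glycogen phosphorylase, releases glucose 1-phosphate from glycogen. Its log2 values ran from 12.62 to 12.83 (median 12.67) in HFD+AC261066 livers, from 12.94 to 13.25 (median 13.01) in HFD livers and from 12.50 to 12.88 (median 12.64) in chow livers. The HFD livers stood above all others, with the lowest of them at 12.94 and chow replicate 2 at 12.88, and the treated livers lay within the range of chow. *Pygl* was higher in HFD than in chow by 0.39 (SE 0.073, adjusted p = 0.00129), a 1.31-fold level, while HFD+AC261066 livers were below HFD livers by -0.34 (adjusted p = 0.0256, 0.788-fold). HFD+AC261066 and chow differed by 0.047, with a 95% interval of -0.11 to 0.20 (adjusted p = 0.721). The difference of HFD from chow was 0.22 in replicates 1 to 3 and 0.57 in replicates 4 to 6. A test of the difference between the sets did not pass over all genes (unadjusted p = 0.0123, adjusted p = 0.319 by limma).

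**Figure D2:**
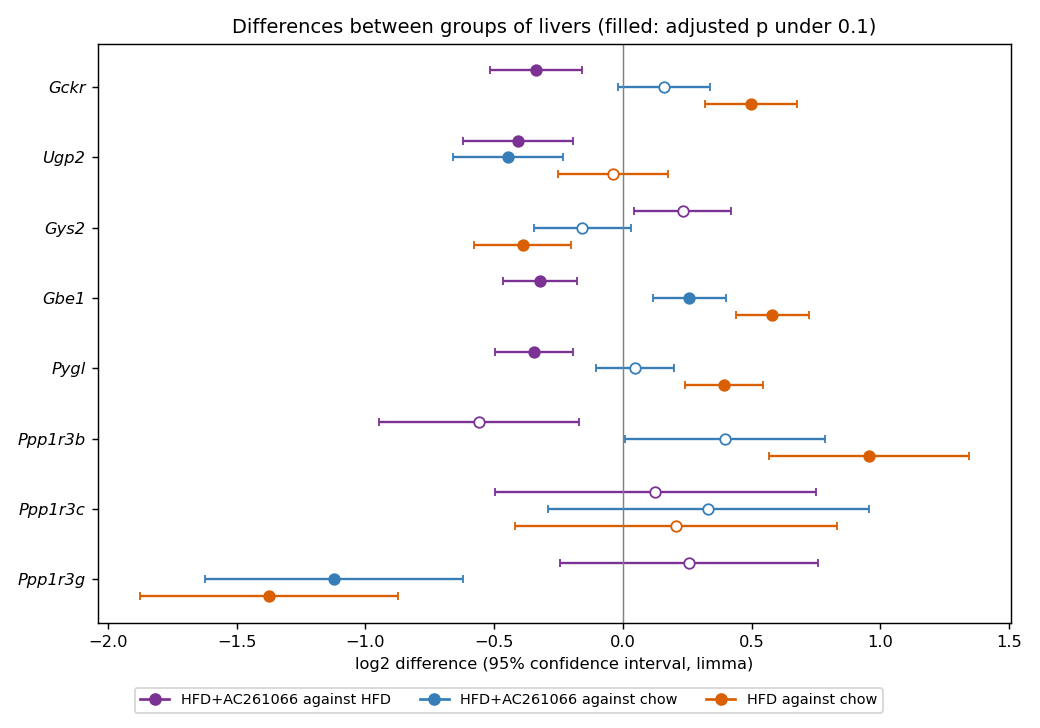
Log2 difference with its 95% confidence interval (x axis) of each of the 8 genes (y axis) in HFD+AC261066 against HFD, HFD+AC261066 against chow and HFD against chow. Filled points were called at an adjusted p under 0.1; *Gbe1* is filled in all 3 comparisons and *Ppp1r3c* in none.

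The mRNA of synthase relative to phosphorylase, as the log2 value of *Gys2* minus that of *Pygl* in the same liver, ran from -0.070 to 0.33 (median 0.19) in HFD+AC261066 livers, from -0.73 to -0.24 (median -0.36) in HFD livers and from -0.070 to 0.58 (median 0.46) in chow livers. Its sign is not read, since no correction for gene length is known, and only the change between groups is read. All HFD livers were below all livers of the other groups. The mean differed by -0.78 in HFD against chow (0.582-fold) and by 0.58 in HFD+AC261066 against HFD (1.49-fold), each with an exact permutation p of 0.005 within the sets, two-sided, the smallest that 400 arrangements can give (adjusted p = 0.0075 over the 3 comparisons). In HFD+AC261066 against chow it differed by -0.20 (exact permutation p = 0.11, adjusted p = 0.11). That last value was called without chow replicate 2, at -0.29 (adjusted p = 0.01), and without HFD+AC261066 replicate 5, at -0.24 (adjusted p = 0.08). In the first 2 comparisons the means share the HFD livers. Both genes were listed with earlier results of these data known. HFD and chow ranges overlapped for neither gene, and those of *Pygl* did not overlap between HFD+AC261066 and HFD livers either. A small p was therefore likely beforehand, and the ratio is no separate support. *Gys2* alone did not pass against HFD (adjusted p = 0.218 by limma over all genes tested).

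**Figure D3:**
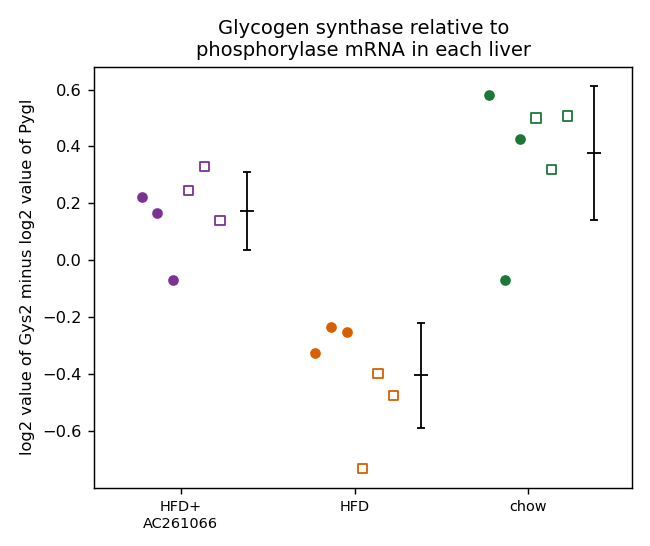
Log2 value of *Gys2* minus log2 value of *Pygl* (y axis) in each liver of the 3 groups, with the mean and SD of 6 livers in black. The 6 HFD livers lie from -0.73 to -0.24, below all livers of the HFD+AC261066 and chow groups.

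*Ppp1r3b*, the targeting subunit that carries PP1 to glycogen in the liver, ran from 11.96 to 12.77 (median 12.31) in HFD+AC261066 livers, from 12.60 to 13.24 (median 12.98) in HFD livers and from 11.45 to 12.82 (median 11.92) in chow livers. The ranges overlapped in all 3 comparisons, and chow replicate 3, at 12.82, stood above the next chow liver, at 12.19. *Ppp1r3b* was higher in HFD than in chow by 0.96 (SE 0.19, adjusted p = 0.00184), a 1.94-fold level. HFD+AC261066 differed from HFD by -0.56 (95% interval -0.95 to -0.17, unadjusted p = 0.00730 by limma), which did not pass over all genes (adjusted p = 0.145), and from chow by 0.40 (adjusted p = 0.179). The difference from HFD was called without chow replicate 3 (adjusted p = 0.0476) and without HFD+AC261066 replicate 6 (adjusted p = 0.0819). It was also called with only these 2 groups in the fit (adjusted p = 0.0134) and in replicates 4 to 6 alone, at -0.50 (adjusted p = 0.0803). That from chow was called without chow replicate 3, at 0.58 (adjusted p = 0.0210), and without HFD+AC261066 replicate 3, at 0.48 (adjusted p = 0.0927). The HFD difference was 0.45 in replicates 1 to 3 and 1.46 in replicates 4 to 6. A test of the difference between the sets did not pass over all genes (unadjusted p = 0.000982, adjusted p = 0.173 by limma). Chow replicates 4 to 6 were the lowest of all livers.

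*Ppp1r3c*, a subunit of the same family that is found in many tissues, had the widest spread of the 8 genes within the HFD+AC261066 and chow groups, with SDs of 0.71 and 0.65 (n = 6 each), and an SD of 0.26 in HFD livers. Its log2 values ran from 9.50 to 11.38 (median 9.94) in HFD+AC261066 livers, from 9.61 to 10.35 (median 9.97) in HFD livers and from 9.43 to 11.08 (median 9.54) in chow livers. HFD+AC261066 replicate 5 (11.38) and chow replicate 3 (11.08) stood apart from the rest of their groups. No comparison passed, with differences of 0.13 in HFD+AC261066 against HFD (95% interval -0.50 to 0.75, adjusted p = 0.882), 0.33 in HFD+AC261066 against chow (-0.29 to 0.96, adjusted p = 0.503) and 0.21 in HFD against chow (-0.42 to 0.83, adjusted p = 0.665). Without HFD+AC261066 replicate 5 the first difference was -0.15.

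*Ppp1r3g*, a subunit that in mouse liver rises with fasting, showed the largest log2 difference among the members. Its log2 values ran from 4.94 to 5.64 (median 5.36) in HFD+AC261066 livers, from 4.54 to 5.72 (median 5.03) in HFD livers and from 5.55 to 7.28 (median 6.46) in chow livers. Of the chow livers, replicate 2 (5.55) was within the range of the HFD livers, and the other 5 were above every liver of the other groups. *Ppp1r3g* was lower in HFD than in chow by -1.38 (SE 0.24, adjusted p = 0.000853), a 0.385-fold level, and lower in HFD+AC261066 than in chow by -1.12 (adjusted p = 0.0102, 0.460-fold). HFD+AC261066 differed from HFD by 0.26, with a 95% interval of -0.25 to 0.76 (adjusted p = 0.660). In HFD against chow the difference was -0.62 in replicates 1 to 3 and -2.13 in replicates 4 to 6, and in HFD+AC261066 against HFD it was -0.26 and 0.77. The value of 0.77 was called in a fit of replicates 4 to 6 alone (adjusted p = 0.0645 by limma). A test of the interaction passed in neither comparison (adjusted p = 0.151 and adjusted p = 0.177 by limma).

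**Figure D4:**
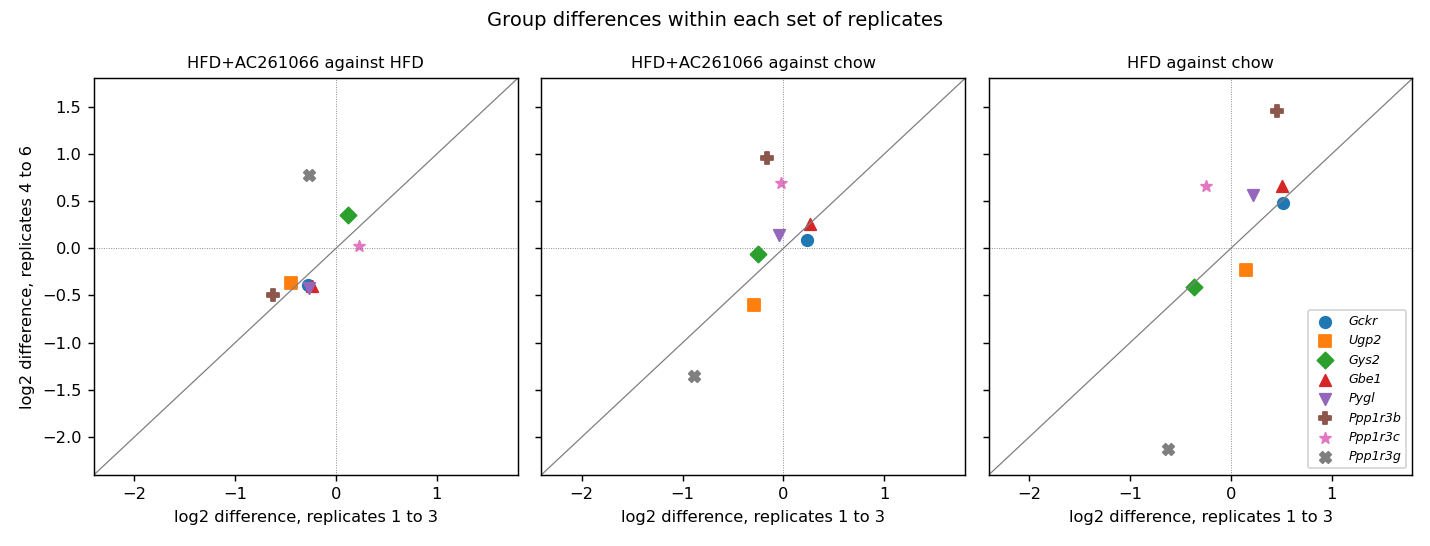
Log2 difference of each of the 8 genes in replicates 1 to 3 (x axis) and in replicates 4 to 6 (y axis), in HFD+AC261066 against HFD, HFD+AC261066 against chow and HFD against chow; the diagonal marks equal values. *Gckr*, *Gys2* and *Gbe1* lie near the diagonal in HFD against chow. *Ppp1r3b* (0.45 and 1.46), *Ppp1r3c* (-0.25 and 0.66) and *Ppp1r3g* (-0.62 and -2.13) lie far from it.

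Taken 2 at a time over the 18 livers, *Gckr* and *Gbe1* had r = 0.79, *Pygl* and *Ppp1r3b* r = 0.78 and *Gys2* and *Gbe1* r = -0.76, as a description across livers of 3 groups. With the mean of each group and set removed, these became 0.13, 0.085 and -0.21, so that most of the likeness lay between groups. *Gys2* and *Ppp1r3g* had r = 0.76 over all livers and 0.74 within groups and sets. *Gckr* and *Ppp1r3g* had r = -0.45 over all livers and 0.67 within groups and sets. The values of 0.74 and 0.67 were the highest of all member pairs within groups and sets, and were not tested. Those of the other pairs ran from -0.43 (*Ugp2* and *Ppp1r3b*) to 0.59 (*Ppp1r3b* and *Ppp1r3c*).

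Of the 13265 genes compared with each member over the 18 livers, those with the highest r were *Slc16a6* (r = 0.87) and *Atp8a1* (0.86) for *Gckr*, *Crebl2* (0.89) and *Ugt2a3* (0.89) for *Ugp2*, and *Zxdc* (0.88) and *Mtmr7* (0.87) for *Gys2*. For *Gbe1* they were *Kbtbd11* (0.92) and *Mpc1* (0.90), of which *Mpc1* encodes a subunit of the mitochondrial pyruvate carrier, and for *Pygl* they were *Mfn2* (0.93), a gene of mitochondrial fusion, and *Acad12* (0.90). For *Ppp1r3b* they were *Smarca4* (0.89) and *Lman2* (0.89), for *Ppp1r3c* *Zfp276* (0.85) and *Snrnp200* (0.84), and for *Ppp1r3g* *Vps11* (0.93) and *Csnk2a2* (0.92). All genes were measured in the same livers and share group differences. The highest of so many values is also large by choice, so these are given with no test. Within groups and sets the r of these 16 genes ran from 0.19 (*Lman2* with *Ppp1r3b*) to 0.92 (*Zxdc* with *Gys2*).

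Around the members, 32 other genes of glycogen and glucose 6-phosphate metabolism were in the table and 31 were tested. Between HFD and chow livers 5 were higher, 5 were lower and 21 did not pass, beside 14.2% of all genes called higher and 15% lower, so the share called was near that of all genes, and their median difference was 0.018, against 0.0060 over all genes. *Slc2a2*, the glucose transporter GLUT2 of hepatocytes, ran from 12.51 to 12.88 in HFD livers and from 12.03 to 12.45 in chow livers, without overlap, and was higher by 0.44 (adjusted p = 0.00127). *Epm2a* and *Nhlrc1*, which encode laforin and malin, partners that guard the shape of glycogen, were higher by 0.43 and 0.37 (adjusted p = 0.00316 and adjusted p = 0.0176). *Hk3*, a hexokinase known from white blood cells, was higher by 0.30 (adjusted p = 0.0634), and *G6pc3*, the widely expressed glucose-6-phosphatase, by 0.22 (adjusted p = 0.0853).

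*Gaa*, the lysosomal acid glucosidase, ran from 11.21 to 11.47 in HFD livers and from 11.68 to 12.02 in chow livers, and was lower by -0.51 (adjusted p = 0.000167). *Stbd1*, which ties glycogen to membranes, was lower by -0.39 (adjusted p = 0.0125), *Slc37a4*, the glucose 6-phosphate transporter of the endoplasmic reticulum, by -0.36 (adjusted p = 0.0644), *Ppp1cb*, a catalytic subunit of PP1, by -0.30 (adjusted p = 0.0254) and *Phkg2*, the liver catalytic subunit of phosphorylase kinase, by -0.26 (adjusted p = 0.0103). In HFD+AC261066 livers *Gaa* ran from 11.52 to 11.83, above every HFD liver, and was the 1 gene of the 31 called against HFD, higher by 0.28 (adjusted p = 0.0616), beside 2.8% of all genes. The other 30 did not pass, among them *Slc2a2* at -0.26 (adjusted p = 0.123). Against chow, where 16.7% of all genes were called, 2 of the 31 were higher in HFD+AC261066 livers, *G6pc3* by 0.26 (adjusted p = 0.0675) and *Epm2a* by 0.26 (adjusted p = 0.0815). The 5 lower genes were *Slc37a4*, *Ppp1cb*, *Gsk3b*, *Gaa* and *Phkg2*, with differences from -0.51 (*Slc37a4*, adjusted p = 0.0255) to -0.19 (*Phkg2*, adjusted p = 0.0661), of which *Gsk3b*, a kinase that turns glycogen synthase off, was named after its values were seen. *Pygm*, the muscle phosphorylase, averaged 4.57, 4.60 and 4.59 in HFD+AC261066, HFD and chow livers.

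**Figure D5:**
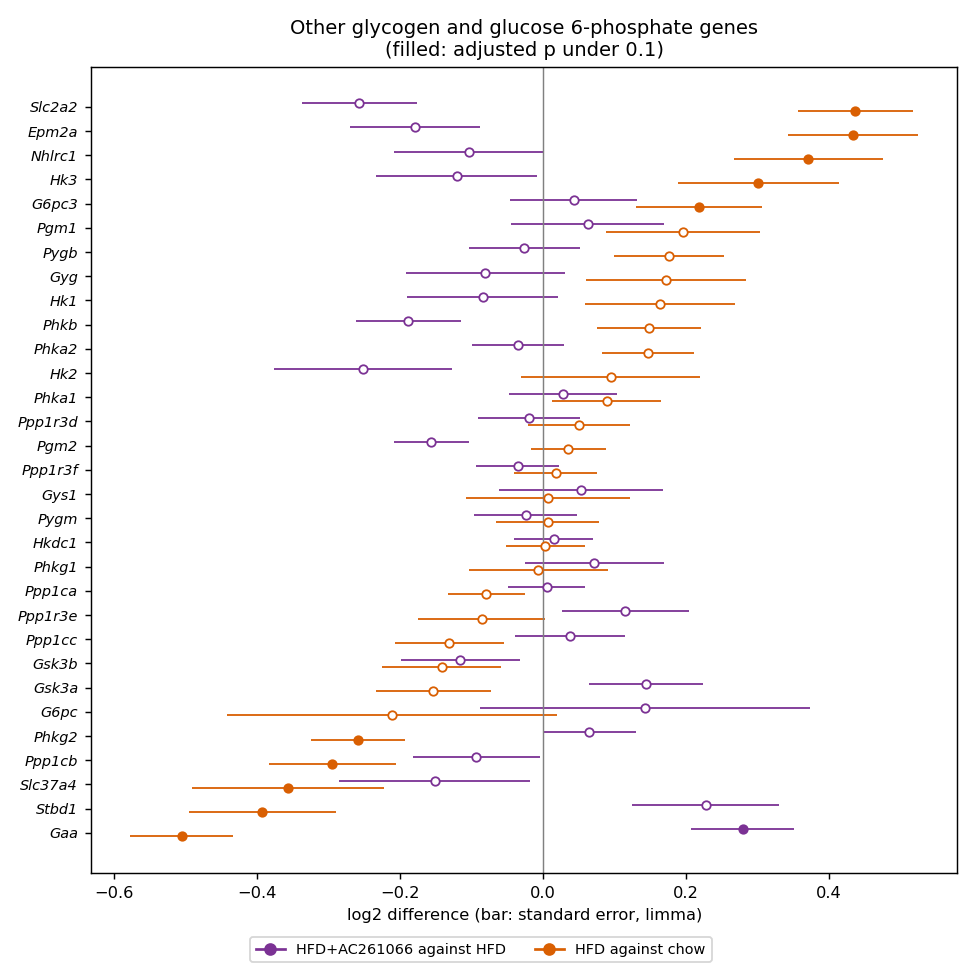
Log2 difference with its standard error (x axis) of the 31 other genes tested (y axis, ordered by HFD against chow), in HFD+AC261066 against HFD and in HFD against chow. Filled points were called at an adjusted p under 0.1; 10 are filled in HFD against chow, and *Gaa* alone in HFD+AC261066 against HFD.

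The tissue carried the marks of liver, with log2 values of *Alb*, serum albumin, from 20.81 to 21.26 in HFD+AC261066 livers, from 20.91 to 21.16 in HFD livers and from 20.93 to 21.36 in chow livers. In whole liver, fewer cells of a type and less RNA per cell cannot be told apart. The markers named next other than *Alb* and *Pygm* were picked out after their values were seen. Of all genes tested, 29.2% were called in HFD against chow, 2.8% in HFD+AC261066 against HFD and 16.7% in HFD+AC261066 against chow. Of 6 hepatocyte markers 3 were lower in HFD than in chow livers (*Apoa1*, *Serpina1a* and *Cps1*), while *Alb*, *Ttr* and *Cyp2e1* were at -0.087, 0.24 and -0.025 and did not pass (adjusted p = 0.858, adjusted p = 0.144 and adjusted p = 0.931 by limma). None was called in HFD+AC261066 against HFD, and *Cps1* was lower in HFD+AC261066 than in chow livers. The log2 of their summed level was 21.31 to 21.71 in HFD+AC261066 livers, 21.37 to 21.58 in HFD livers and 21.43 to 21.76 in chow livers. Here and below, the sums add values taken off the log2 scale, with no length correction made here. The genes with the highest values, such as *Alb*, therefore weigh most, and the sums are not levels of a cell type. Of 6 Kupffer cell markers *Clec4f* and *Emr1* were higher in HFD than in chow livers, and *Clec4f* in HFD+AC261066 than in chow livers (summed levels 13.34 to 14.09 in HFD+AC261066, 13.35 to 13.77 in HFD and 13.13 to 13.49 in chow livers). Of 5 stellate cell markers *Lrat* was higher in HFD than in chow livers (adjusted p = 0.0953 by limma). *Col1a1*, a collagen, differed by -1.34 between HFD+AC261066 and HFD livers (adjusted p = 0.0890 by limma). It did not pass between HFD and chow livers, at 0.78 (adjusted p = 0.149 by limma). *Reln*, *Des* and *Dcn* passed in neither comparison, at 0.30, 0.072 and 0.10 in HFD against chow. In HFD+AC261066 against HFD they were at -0.29, -0.013 and -0.077. The summed levels of the stellate cell markers were 12.17 to 12.67 in HFD+AC261066, 12.36 to 13.09 in HFD and 12.04 to 12.84 in chow livers.

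Of 5 endothelial markers *Kdr* was higher in HFD+AC261066 than in HFD livers and *Clec4g* in HFD+AC261066 than in chow livers, by 0.30 and 0.32, while *Lyve1* was at -0.45 against HFD (adjusted p = 0.309) and -0.53 against chow (adjusted p = 0.115), neither of which passed (summed levels 12.53 to 12.72 in HFD+AC261066, 12.40 to 12.62 in HFD and 12.47 to 12.54 in chow livers). None of 5 cholangiocyte markers was called in any of the 3 comparisons (summed levels 9.52 to 9.78 in HFD+AC261066, 9.64 to 10.12 in HFD and 9.36 to 10.24 in chow livers). No adipocyte or pancreas marker reached the level for testing, with *Lep* and *Prss1* listed at 0, and of 4 skeletal muscle markers *Pygm* alone did. Of 3 erythroid markers *Hba-a1* was listed at 0 too, and *Hbb-b1* averaged -3.29 in HFD and -3.28 in chow livers, below the level for testing. *Alas2*, the 1 erythroid marker tested, was higher in HFD than in chow livers by 0.40. The part of these cells in the differences of the members was not tested.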

How the data were processed

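RNA-seq of liver gave 1 library for each of 18 mice, 6 in each group. The authors deposited log2 values per gene, made from reads aligned to mm9 with TopHat2 2.0.11 and counted with HTSeq 0.6.1, with DESeq2 1.6.3 and with batch effects removed by removeBatchEffect of limma 3.22.7. Their processing notes list cutadapt and bcl2fastq 2.17 as well. The transform to log2 is not given in the sources used here, and genes with low values had a small spread within groups. The supplement states paired reads of 51 bases and about 30 M read pairs per sample, and RNA integrity numbers above 9. The sample labels describe a kit for DNA and a growth protocol for neural stem cells, which do not match the supplement. Of 20512 genes, 3620 were 0 in every library.

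The 13268 genes that averaged 2 or more on the log2 scale were fitted in R 4.3.3 by limma 3.58.1, using a variance trend, all 3 groups, and a term for the set of replicates (1 to 3 or 4 to 6), whose means are equal in the values for every gene. The labels name no batch. The term leaves each difference as it is and takes the residual degrees of freedom from 15 to 14, as levelling had used 1. The members and lists were chosen with earlier results of these data known. All 8 members are named, with every pathway gene called in HFD against chow or HFD+AC261066 against HFD, the 2 genes with the highest r with each member, and the markers *Alb* and *Pygm*. Some genes of the pathway list are not reported here. The ratio of *Gys2* to *Pygl* was tested by exact permutation within the sets. Alternatives were no set term, the replicate number as a block, each set alone, other minimums and scalings, no trend, the 2 groups compared alone, leaving out single libraries and a call at 0.05. Promoters came from RefSeq (GRCm38.p6) and gene positions from GENCODE on NCBIM37. Python 3.11.15, numpy 2.4.6, pandas 2.3.3 and matplotlib 3.10.9 were used.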

Additional observations from a re-analysis of the deposited data

Results flagged for a closer look

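Of 24 groups of 6 livers, 8 genes in each of 3 groups, 1 held a liver far from the others: chow replicate 3, with a log2 value of 11.08 for *Ppp1r3c*, while the next chow liver was at 9.67. Chance alone would mark about 1 group in 20. *Ppp1r3b* was also highest in that liver among chow livers.

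The difference of *Ppp1r3b* between HFD+AC261066 and chow livers depended on the set of replicates. It was -0.17 on the log2 scale in replicates 1 to 3 and 0.96 in replicates 4 to 6, so that the sets differed by 1.13 (adjusted p = 0.0394 by limma, a test of the interaction that 566 of the 13268 genes passed). The study describes a repeat of the whole experiment and the removal of batch effects, but neither it nor the labels say which replicates belong to which run. Whether the sets are these runs was not tested.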

How the results depend on the processing

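Of 696 values of single members under the alternatives, 650 kept their direction and their side of the threshold, 27 no longer passed, 10 newly passed and 9 changed sign. In HFD against chow all 6 members stayed called without each single library and under every alternative but replicates 1 to 3 alone, which had 3 livers a group. There 2, 0 and 0 members were called in HFD against chow, HFD+AC261066 against HFD and HFD+AC261066 against chow, and 922, 23 and 123 of all genes, against 3880, 372 and 2212; the 2 members were *Gckr* and *Gbe1*. In the same set *Ugp2* (0.15) and *Ppp1r3c* (-0.25) changed sign in HFD against chow, *Ppp1r3g* (-0.26) in HFD+AC261066 against HFD, and *Pygl* (-0.046), *Ppp1r3b* (-0.17) and *Ppp1r3c* (-0.025) in HFD+AC261066 against chow, none of them called there. *Ugp2* was 0.031 in HFD against chow after quantile normalization. For HFD+AC261066 against HFD all genes called numbered 620 in replicates 4 to 6 alone and 581 with no set term, and at a threshold of 0.05 they numbered 172, with 2 members (*Gbe1* and *Pygl*), and 1239 for HFD+AC261066 against chow. The cause of these changes was not tested. The ratio of *Gys2* to *Pygl*, first for HFD against chow and then for HFD+AC261066 against HFD, was -0.58 and 0.38 in replicates 1 to 3 and -0.98 and 0.77 in replicates 4 to 6, where 3 livers a group cannot pass.

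Without single libraries, 2 to 5 members and 125 to 683 genes were called in HFD+AC261066 against HFD, and 3 to 5 members and 1387 to 2811 genes in HFD+AC261066 against chow. *Ugp2* ran from -0.12 to 0.044 in HFD against chow and *Ppp1r3c* from -0.15 to 0.26 in HFD+AC261066 against HFD. The ratio ran from -0.29 to -0.16 in HFD+AC261066 against chow. Correlations of same-numbered deviations ran from -0.17 to 0.21. Of 6 pairs, 2 were above 0.1 in HFD against chow, 0 in HFD+AC261066 against HFD and 3 in HFD+AC261066 against chow. Livers with different numbers were not compared, so these values cannot show whether the replicate numbers pair the livers. With the replicate block 6, 4 and 3 members and 3636, 292 and 1863 genes were called. Library depth is unknown.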
